A study of Mus musculus with 11 samples.

Results

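Neonatal mouse thymocytes that carried the N440K form of Bcl11b beside a wild-type allele (+/N440K) were compared with thymocytes in which the allele labelled D stood in place of that wild-type allele (D/N440K). The members are the 2 D/N440K and 2 +/N440K libraries, chosen by genotype among the 11 libraries of the series, and the 10910 genes that the authors' normalised table lists, of 53801 identifiers in the count table. Every library came from the thymus at postnatal day 0, from cells sorted as CD24-negative and TCRβ-negative. Both groups carry 1 N440K allele, and the labels do not say what D is or how it was made. The 2 Bcl11b +/+ libraries of the same age and sort are given beside the results. The comparison asks what the change of the second allele adds to N440K, and which genes stay equal. Nothing in the labels says that replicates are separate animals, so p-values measure the spread between these libraries, which may be technical.

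Bcl11b is a zinc finger transcription factor that T cell precursors switch on when they commit to the T lineage, and its loss lets thymocytes take on natural killer (NK) cell features. Its close relative Bcl11a acts in early lymphoid progenitors and in γδ T cells. In T cells, the T cell receptor signal runs through the CD3 chains and the kinases Lck and Zap70 to phospholipase Cγ1. Innate lymphoid cells and NK cells use related signalling parts without a rearranged receptor.

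The libraries held 999381 to 1246272 counted reads each, with 17544 to 18584 genes seen at least once, so on the CPM scale, which sets each count against the size of its library, a single read was worth 0.816 to 1.02 and 3 reads were worth 2.45 to 3.07. Cd24a, the gene of the marker sorted against, had 3 reads in the +/N440K group and 5 in the D/N440K group. Bcl11b stood at 185 and 225 CPM in +/N440K and at 152 and 204 CPM in D/N440K, against 641 and 506 CPM in +/+. The counts do not separate the alleles, so this level does not check the D allele. Xist (301 to 381 CPM) and the Y-linked Uty (41.1 to 50.9 CPM) were both read in all 4 libraries. In bulk RNA, fewer cells of a type and less RNA per cell cannot be told apart.

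Few genes differed. By edgeR's quasi-likelihood test, 58 of 10910 genes (0.532%) passed a Benjamini-Hochberg adjusted p of 0.05: 31 (0.284%) rose and 27 (0.247%) fell in D/N440K relative to +/N440K, and 11 of the former and 10 of the latter differed by at least 2-fold. The group values of all 58 did not overlap, as was the case for 35.4% of all genes tested. The falls included Plcg1, which encodes phospholipase Cγ1, Blk, a Src family kinase, and Plxnd1, a semaphorin receptor that guides thymocyte migration. The rises included Mtmr9, a myotubularin family protein, Rag1, a subunit of the recombinase, and 3 haemoglobin genes.

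A gene was read as held equal only where the 95% interval of its log2 fold change lay inside 1.5-fold in either direction. This was so for 5216 genes (47.8%), 4 of which were also called, and 5640 genes (51.7%) were undecided, being neither called nor held. The share held followed the level: it was 1.59% of the 3959 genes with an average log2 CPM under 5, 44.4% between 5 and 6, 84.2% between 6 and 7, 96.9% between 7 and 8, and 98.6% of the 797 genes above 8. The median log2 fold change of all genes was -0.00014 and the median size 0.15. These shares, with the 0.284% and 0.247% of all genes called higher and lower, belong beside the counts of each gene list below.

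**Figure D1:**
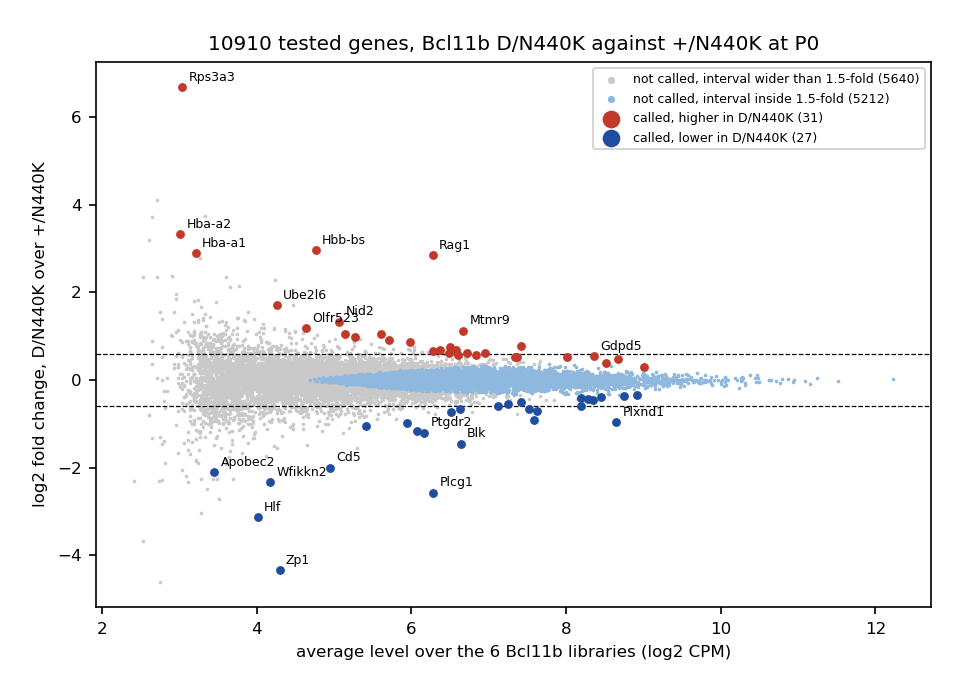
Each point is 1 of the 10910 tested genes, with its average level over the 6 Bcl11b libraries (log2 CPM) on the x axis and the log2 fold change of D/N440K over +/N440K on the y axis. The dashed lines mark 1.5-fold. The 31 genes called higher are red and the 27 called lower are dark blue, and the 5212 uncalled genes held inside 1.5-fold are light blue and crowd the right side.

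The calls rested on few libraries. Only 9 of the 58 genes were called whichever of the 4 libraries was left out, among them Dlg5, Gdpd5, Hbb-bs, Mtmr9, Plcg1, Plxnd1, Ptgdr2 and Rps3a3, and DESeq2 called 4 (among them Mtmr9 higher, and Plcg1 and Plxnd1 lower; 212 at an unadjusted p under 0.05, where edgeR had 851, or 7.8%), giving no adjusted p for 17 of the 58. No called gene changed sign under any alternative that gave it an adjusted p.

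**Figure D2:**
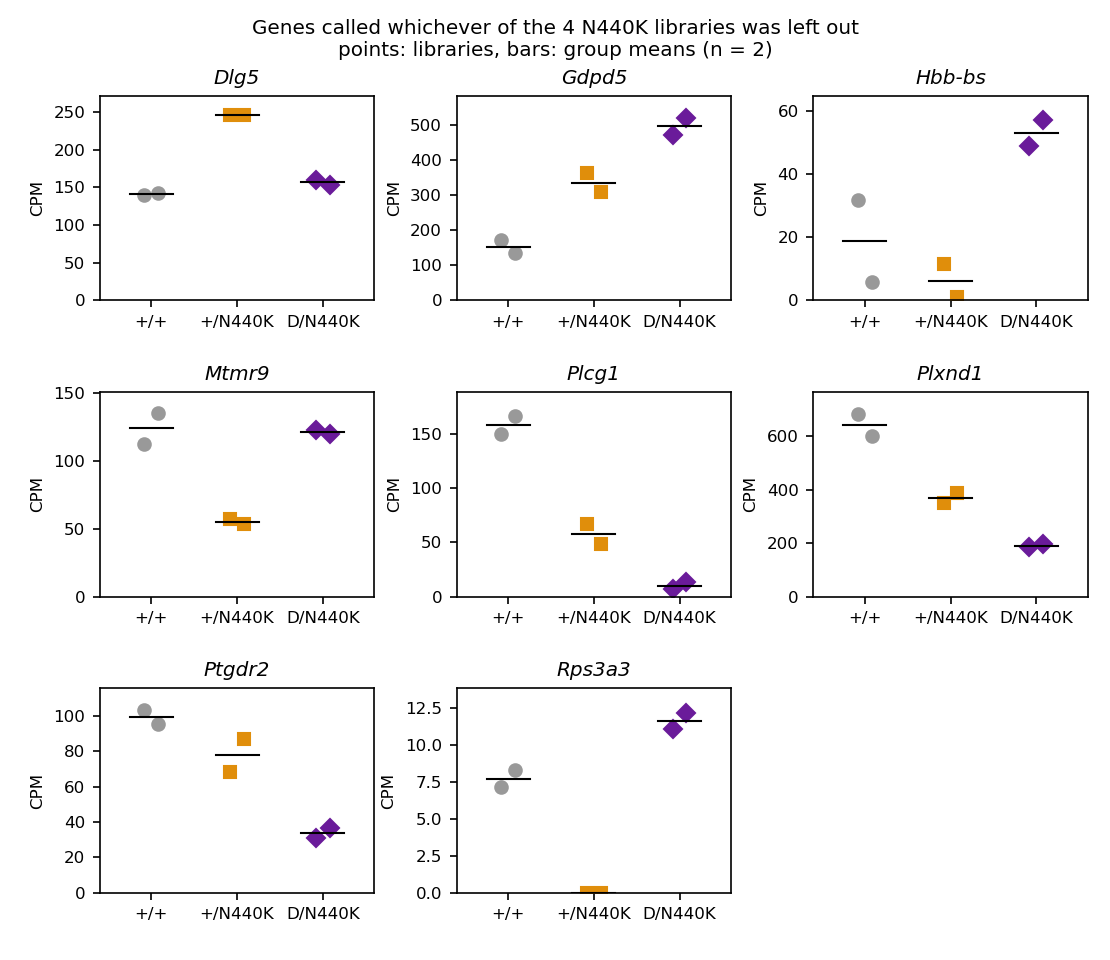
Level in CPM (y axis, from 0) of genes called whichever of the 4 N440K libraries was left out, in the +/+, +/N440K and D/N440K groups; points are libraries and bars are group means of 2. Plcg1 and Plxnd1 step down from left to right, Gdpd5 steps up, and the D/N440K points of Mtmr9 and Dlg5 lie close to or among the +/+ points.

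Plcg1, downstream of CD3, fell. It stood at 66.9 and 48.4 CPM in +/N440K and at 6.85 and 13.2 CPM in D/N440K, with 150 and 167 CPM in +/+. The D/N440K libraries were both far below the +/N440K libraries, by 5.92-fold (log2 fold change -2.57, SE 0.29, edgeR adjusted p = 5.05e-07). Plcg1 overlaps the annotated genes Gm27206 and Zhx3, and the strand used in counting is not stated. Lck, the kinase that starts the receptor signal, had 366 and 333 against 365 and 330 CPM, and was held (log2 fold change -0.0075, interval -0.19 to 0.18). Zap70 was held too, at 251 and 298 against 223 and 222 CPM (log2 fold change -0.30, interval -0.50 to -0.09).

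Of the 20 genes of the CD3 and T cell receptor signalling list, Plcg1, Cd5 and Cd3e fell, Cd3g rose, 11 were held and 5 were undecided. Their median log2 fold change was -0.16 and 4 of the 20 estimates were above 0, against a median of -0.00014 over all genes; the shares called lower and higher among all genes were 0.247% and 0.284%. Cd5, an inhibitor of receptor signalling, stood at 14.7 and 15.8 CPM in +/N440K and at 3.43 and 4.07 CPM in D/N440K, with 67.5 and 68.1 CPM in +/+. The groups were apart by 3.99-fold (log2 fold change -1.997, SE 0.48, edgeR adjusted p = 0.0324). The call of Cd5 was lost without any 1 of the 4 libraries, with edgeR adjusted p of 0.076 without +/N440K replicate 1, 0.096 without replicate 2, 0.303 without D/N440K replicate 1 and 0.132 without replicate 2. Cd6, its relative, had 20.4 and 14.8 against 6.85 and 5.09 CPM and did not pass (log2 fold change -1.54, edgeR adjusted p = 0.0751).

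The CD3 chain genes Cd3e, Cd3g and Cd3d lie together on chromosome 9 within 40.1 kb and gave 3 outcomes. Cd247, which encodes the ζ chain of the complex, was undecided at 62.0 and 65.1 against 54.0 and 48.85 CPM (log2 fold change -0.30). Cd3e fell from 299 and 315 CPM to 235 and 231 CPM, with 508 and 497 CPM in +/+ (log2 fold change -0.39, SE 0.10, edgeR adjusted p = 0.0361). Cd3g rose from 122 and 118 CPM to 172 and 173 CPM, with 185 and 190 CPM in +/+ (log2 fold change 0.52, SE 0.12, edgeR adjusted p = 0.0309). Between them, Cd3d was held, at 53.0 and 64.2 against 52.2 and 61.1 CPM (log2 fold change -0.05, interval -0.42 to 0.33). Both calls were lost without any 1 of the 4 libraries. The edgeR adjusted p then reached 0.058 and 0.172 for Cd3e without +/N440K replicate 1 or 2, and 0.241 and 0.252 without D/N440K replicate 1 or 2. For Cd3g the same 4 values were 0.0896, 0.128, 0.220 and 0.186.

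The 250 bases before the start of each of these genes of opposite direction are shown because they are close neighbours. They are RefSeq sequence on GRCm38.p6, minus strand, written 5′ to 3′, at chr9:45009612-45009861 for Cd3e and chr9:44980432-44980681 for Cd3g. Capitals mark a match to 1 of 4 short motifs searched on both strands.
Cd3e: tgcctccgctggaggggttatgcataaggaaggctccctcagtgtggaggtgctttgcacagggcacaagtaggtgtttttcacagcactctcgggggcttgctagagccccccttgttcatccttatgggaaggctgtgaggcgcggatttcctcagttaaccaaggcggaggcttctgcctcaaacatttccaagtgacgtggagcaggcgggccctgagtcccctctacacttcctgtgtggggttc
Cd3g: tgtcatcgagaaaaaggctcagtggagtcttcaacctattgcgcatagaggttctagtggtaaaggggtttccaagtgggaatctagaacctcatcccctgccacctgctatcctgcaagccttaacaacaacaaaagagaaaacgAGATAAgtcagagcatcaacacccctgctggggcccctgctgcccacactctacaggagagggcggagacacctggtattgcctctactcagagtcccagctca
The first motif, TGACCA, is one described for BCL11A, and 11.4% of the 32851 RefSeq promoters of this length hold it. The core bound by RUNX factors, TGTGGT, is in 14.0% of them. For GATA factors the letters were AGATAA, in 9.99%, and for the TCF and LEF factors CTTTGA, in 13.8%. The Cd3g stretch holds AGATAA 104 bases before the start, and the Cd3e stretch holds none of the 4. The printed stretches hold no overlapping matches. A promoter was found for 42 of the 58 called genes, 20 lower and 22 higher. In that order of motifs, 2, 3, 2 and 3 of the 20 lower genes and 3, 6, 3 and 1 of the 22 higher genes held a match, which describes letters and not binding.

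Among the 7 T cell receptor constant regions, Trdc, the constant region of the δ chain, was the 1 that was called. The share called among all genes was 0.532%. Trdc fell from 203 and 168 CPM to 114 and 116 CPM, with 288 and 281 CPM in +/+ (log2 fold change -0.70, SE 0.13, edgeR adjusted p = 0.00215). Its call was lost without +/N440K replicate 1 (log2 fold change -0.54, edgeR adjusted p = 0.0827), and the gene overlaps Gm43434 and Trdv5. The β chain genes Trbc1 (log2 fold change -0.06) and Trbc2 (0.01) were held. Trac, the α chain constant region, had 18.8 and 12.8 against 5.995 and 5.09 CPM and did not pass (edgeR adjusted p = 0.154), nor did Tcrg-C1 at 67.7 and 74.0 against 49.7 and 40.7 CPM (edgeR adjusted p = 0.128).

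**Figure D3:**
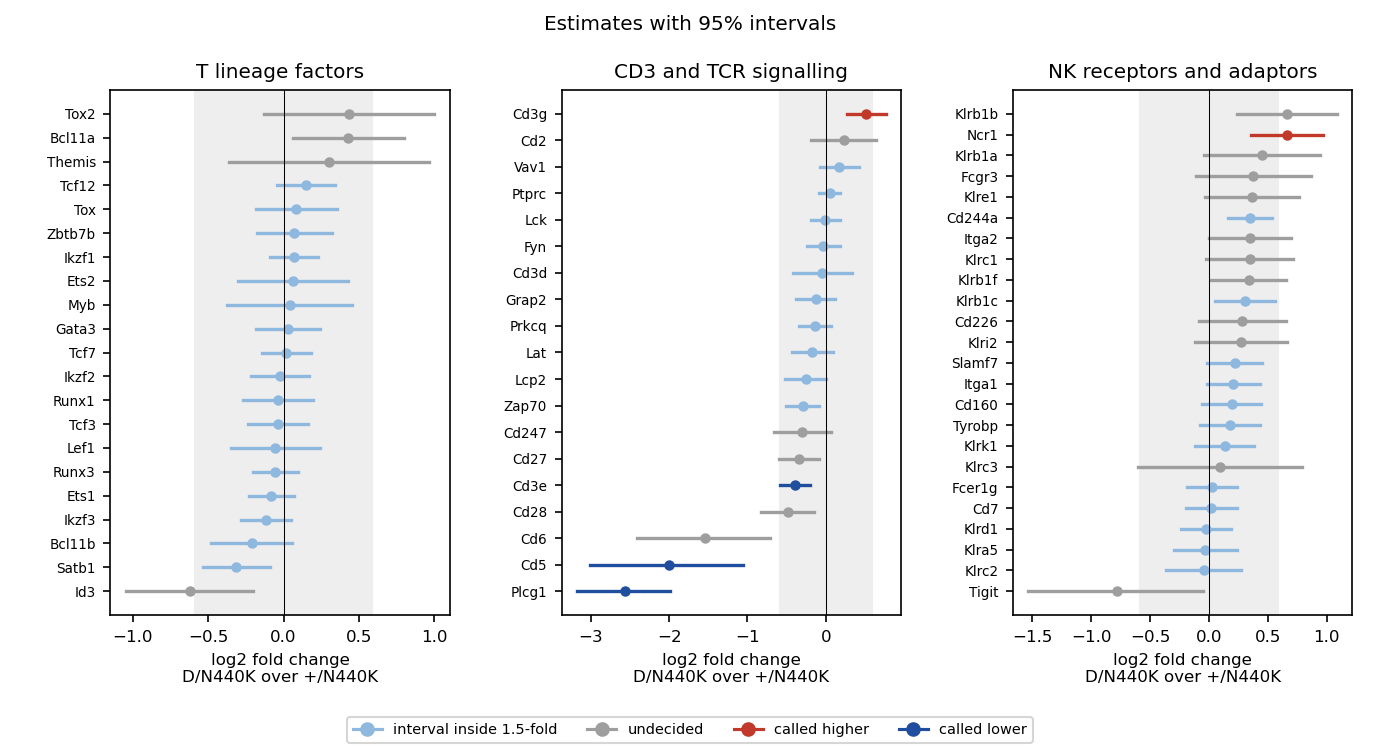
Log2 fold change of D/N440K over +/N440K (x axis) with its 95% interval for tested genes of the T lineage factors, of CD3 and T cell receptor signalling, and of the NK receptors and adaptors. The grey band is 1.5-fold. Most transcription factors sit inside the band, while Plcg1 and Cd5 lie far to its left; the x axes differ between panels.

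The genes of γδ T cells that make interleukin 17 (type 17 cells), and of related innate cells, held 2 of the falls, Il17re and Blk. Il17re, a receptor chain for interleukin 17C, fell from 55.5 and 48.4 CPM to 24.8 and 28.5 CPM, with 104 and 96.3 CPM in +/+ (log2 fold change -0.97, SE 0.22, edgeR adjusted p = 0.0264). Blk, a Src family kinase of B cells and type 17 γδ T cells, fell from 25.3 and 28.6 CPM to 11.99 and 7.13 CPM, with 281 and 236 CPM in +/+ (log2 fold change -1.45, SE 0.34, edgeR adjusted p = 0.0312).

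In the list of γδ and type 17 genes, 2 of 16 tested members fell (Blk and Il17re), 3 were held and 11 were undecided, with a median log2 fold change of -0.13. Of all genes 0.247% were called lower and 47.8% held. Sox13, a factor of γδ T cells, had 22.9 and 14.8 against 9.42 and 13.2 CPM, with 541 and 394 CPM in +/+; it did not pass (log2 fold change -0.78, edgeR adjusted p = 0.670). Maf, which type 17 γδ T cells require, stood at 249 and 260 against 204 and 173 CPM (log2 fold change -0.42, edgeR adjusted p = 0.0514). It was called lower under several alternatives, among them the fit of only the 4 libraries compared (edgeR adjusted p = 0.0487) and upper-quartile scaling (0.0423). With the replicate number as a block Maf did not pass (edgeR adjusted p = 0.102). Its log2 fold change was -0.555 without D/N440K replicate 1 and -0.320 without D/N440K replicate 2. Il23r had 18.0 and 15.8 against 7.71 and 4.07 CPM (edgeR adjusted p = 0.140). Cd163l1, a scavenger receptor of γδ T cells, was held at 1876 and 1964 against 1920 and 1913 CPM, with 2192 and 1970 CPM in +/+. The call of Blk was lost without +/N440K replicate 2 (edgeR adjusted p = 0.118), D/N440K replicate 1 (0.070) or D/N440K replicate 2 (0.351). That of Il17re was lost without +/N440K replicate 1 (edgeR adjusted p = 0.188) or either D/N440K library (0.311 and 0.0783).

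Of 12 tested genes of group 2 innate lymphoid cells, Ptgdr2, Icos and Hlf fell, 3 were held and 6 were undecided. Of all genes 0.247% were called lower and 47.8% were held. The median average log2 CPM of the list was 4.51, and 1.59% of all genes under 5 were held. Ptgdr2, which encodes the prostaglandin D2 receptor CRTH2, fell from 68.6 and 86.9 CPM to 30.8 and 36.6 CPM, with 103 and 95.5 CPM in +/+ (log2 fold change -1.20, SE 0.20, edgeR adjusted p = 0.000835). Icos, a costimulatory receptor, fell from 47.3 and 62.2 CPM to 26.6 and 25.5 CPM, with 46.0 and 39.0 CPM in +/+ (log2 fold change -1.05, SE 0.23, edgeR adjusted p = 0.0213). Hlf, a PAR bZIP factor also known in blood stem cells, fell from 15.5 and 18.8 CPM to 3.43 and 0 CPM, with 21.5 and 25.7 CPM in +/+ (log2 fold change -3.12, SE 0.62, edgeR adjusted p = 0.00506). Gata3, the factor of these cells and of early T cells, was held (log2 fold change 0.03), as were Ccr8 (0.28) and Il17rb (-0.09). Without D/N440K replicate 1, which leaves a library with 0 reads of Hlf, its fitted log2 fold change was -7.21, a value that depends on the prior count. Without D/N440K replicate 2 the calls of Hlf (log2 fold change -2.28, edgeR adjusted p = 0.0979) and Icos (0.113) were lost, and that of Icos also without D/N440K replicate 1 (0.146) or +/N440K replicate 2 (0.169).

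Ptgdr2, Zp1 and Cd5 lie within 225.4 kb of chromosome 19 (GRCm38, chr19:10717116-10942511), and all 3 fell. The stretch held 10 tested genes, of which 3 were called, 2 held and 5 undecided, and 8 of the 10 estimates were below 0. Of all genes 0.247% were called lower, and the median log2 fold change was -0.00014. The called genes set the bounds of the stretch, so these counts describe it and do not test it. Zp1, a gene of the egg coat, had 26 reads in +/N440K and 1 in D/N440K, a ratio of 25.0 with an exact 95% counting interval of 4.10 to 1024. Omitting D/N440K replicate 2 ended the call of Zp1 (log2 fold change -3.60 in place of -4.34, edgeR adjusted p = 0.0508). Cd6 and A430093F15Rik, between Cd5 and Zp1, had log2 fold changes of -1.54 and -1.82 and were undecided, as was Ccdc86, which overlaps Ptgdr2 (-0.62). Tmem132a, also between Cd5 and Zp1, went the other way without passing, at 0.816 and 1.97 against 6.85 and 3.05 CPM (log2 fold change 1.84, interval 0.10 to 3.76, edgeR adjusted p = 0.594). In the same stretch Prpf19, a splicing factor, was held at 207 and 197 against 195 and 212 CPM, and Tmem109 was held at 118 and 120 against 111 and 95.7 CPM.

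The upstream 250 bases of Cd5 and Ptgdr2, which bound this stretch, are shown because the called genes in it fell together. They lie at chr19:10738975-10739224 (minus strand) and chr19:10936910-10937159 (plus strand) of GRCm38.p6 in RefSeq, with capitals as above.
Cd5: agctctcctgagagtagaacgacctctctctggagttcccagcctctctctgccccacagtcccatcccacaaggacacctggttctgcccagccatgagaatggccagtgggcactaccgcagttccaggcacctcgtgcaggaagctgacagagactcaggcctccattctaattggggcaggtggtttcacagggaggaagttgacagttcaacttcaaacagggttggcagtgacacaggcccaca
Ptgdr2: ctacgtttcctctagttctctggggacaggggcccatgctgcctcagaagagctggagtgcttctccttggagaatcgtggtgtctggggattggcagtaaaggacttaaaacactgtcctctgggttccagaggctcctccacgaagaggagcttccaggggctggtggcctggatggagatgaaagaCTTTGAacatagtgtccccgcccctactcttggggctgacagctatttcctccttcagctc
The Ptgdr2 stretch holds CTTTGA 61 bases before the start. The Cd5 stretch holds none of the 4 motifs.

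A second pair of neighbours moved in opposite directions on chromosome 14. Mtmr9 rose from 57.1 and 53.3 CPM to 123 and 120 CPM, with 113 and 135 CPM in +/+ (log2 fold change 1.13, SE 0.16, edgeR adjusted p = 4.59e-05). The D/N440K values lay inside the +/+ range and the +/N440K values below it. Blk, which fell, lies 102614 bases away, and Fam167a between them was undecided at 4.90 and 5.92 against 5.14 and 3.05 CPM. Over all called genes, 9 lay in 4 such runs with gaps of at most 250 kb, the fourth being the α-globin pair. How often genes picked without regard to the calls lie as close was not tested.

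Genes of pre-T cells and double-positive thymocytes went both ways. Rag1 rose from 2.45 and 0.987 CPM to 8.56 and 19.3 CPM, with 210 and 216 CPM in +/+ (log2 fold change 2.84, SE 0.62, edgeR adjusted p = 0.0142). The D/N440K libraries stood above both +/N440K libraries but far below +/+, and Rag1 overlaps B230118H07Rik. In the fit of only the 4 libraries compared, Rag1 did not pass the filter on low counts. It was thus tested here only because of its reads in +/+. Neither limma-voom (adjusted p = 0.146) nor DESeq2 (adjusted p = 0.118) called it. Without +/N440K replicate 1 the log2 fold change of Rag1 was 3.63. Its call was lost without +/N440K replicate 2 (edgeR adjusted p = 0.0951) and without D/N440K replicate 2 (log2 fold change 2.19, edgeR adjusted p = 0.351). Cd8a fell from 36.7 and 40.5 CPM to 15.4 and 19.3 CPM, with 147 and 136 CPM in +/+ (log2 fold change -1.15, SE 0.27, edgeR adjusted p = 0.0264). The call of Cd8a was lost without +/N440K replicate 2 (edgeR adjusted p = 0.105) and without either D/N440K library (0.358 and 0.0646).

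Of the 13 tested genes of this group, 1 rose (Rag1), 2 fell (Cd8a among them), 1 was held and 9 were undecided. Their median log2 fold change was 0.12. Among all genes 0.284% were called higher, 0.247% lower and 47.8% held. The median average log2 CPM of the group was 4.78, and 1.59% of all genes under 5 were held. Rag2, the partner of Rag1, had 3 reads in +/N440K and 2 in D/N440K. Cd8b1, which encodes the other chain of the CD8 dimer, had 3.26 and 2.96 against 5.995 and 7.125 CPM, and Cd4 had 7.35 and 12.8 against 12.9 and 8.14 CPM. The summed level of the 8 markers of cortical thymocytes, which carry CD24, was 54.7 and 58.2 CPM in +/N440K and 47.1 and 57.0 CPM in D/N440K, against 519 and 526 CPM in +/+, with Dntt at 0 in all 4. The summed level thus overlapped between the 2 groups compared.

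The transcription factors of T lineage commitment gave no call. Of 21, 17 were held, 4 were undecided and 0 were called by edgeR's quasi-likelihood test. Their median log2 fold change was 0.02 and their median average log2 CPM 8.25, a level at which 98.6% of all genes were held, so the factors were not held more often than other genes. Tcf7, which encodes the Notch-induced factor TCF1, stood at 675 and 710 against 686 and 717 CPM, with 1001 and 824 CPM in +/+ (log2 fold change 0.02, interval -0.14 to 0.18). Gata3 had 213 and 232 against 229 and 224 CPM, with 277 and 254 CPM in +/+ (interval -0.18 to 0.24). Ets1 (log2 fold change -0.08), Runx3 (-0.05) and Ikzf1 (0.07) were held as well. Satb1, a chromatin organiser of thymocytes, was held near the edge, at 304 and 270 against 212 and 255 CPM (interval -0.54 to -0.09).

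Bcl11b itself was held, with a log2 fold change of -0.21 (interval -0.48 to 0.06), and its values overlapped between the groups. Bcl11a was undecided: it had 47.3 and 53.3 CPM in +/N440K and 64.2 and 71.3 CPM in D/N440K, with 102 and 111 CPM in +/+ (log2 fold change 0.43, interval 0.06 to 0.80, edgeR adjusted p = 0.490). Id3, an inhibitor of E proteins, was also undecided at 55.5 and 77.0 against 34.3 and 51.9 CPM (edgeR adjusted p = 0.233). The genes of the NuRD chromatin complex, a partner of both BCL11 proteins, gave 12 held and 2 undecided of 14. Chd4, its motor subunit, had 532 and 524 against 534 and 523 CPM (log2 fold change 0.00082, interval -0.15 to 0.16).

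The factors of NK and innate lymphoid cells gave 10 held, 3 undecided and 1 lower of 14, with a median log2 fold change of 0.11. Among all genes 47.8% were held and 0.247% called lower. The median average log2 CPM of the list was 7.74, and 96.9% of all genes between 7 and 8 were held. These factors were thus not held more often than genes of their level. Id2, which all innate lymphoid cells need, had 478 and 497 against 534 and 581 CPM, with 276 and 280 CPM in +/+; the groups were apart and the interval of 0.03 to 0.35 lay inside 1.5-fold. Zbtb16, which encodes PLZF, had 228 and 219 against 256 and 259 CPM, with 383 and 370 CPM in +/+ (interval 0.00083 to 0.40). Tbx21, which encodes T-bet, was held at 264 and 322 against 295 and 345 CPM. Eomes, the T-bet relative of mature NK cells, stood higher without passing: it had 79.2 and 73.0 CPM in +/N440K, 141 and 94.7 CPM in D/N440K and 17.4 and 25.7 CPM in +/+ (log2 fold change 0.65, SE 0.16, edgeR adjusted p = 0.0561). Eomes passed in the fit of only the 4 libraries compared (edgeR adjusted p = 0.0384) but not with the replicate number as a block (edgeR adjusted p = 0.0987). Its log2 fold change was 0.88 without D/N440K replicate 2 and 0.31 without D/N440K replicate 1, so its size rested on the latter library.

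Among NK receptors and adaptors, 1 of 24 tested genes rose, 12 were held and 11 were undecided. Of all genes 0.284% were called higher and 47.8% held. The median average log2 CPM of the list was 6.28, and 84.2% of all genes between 6 and 7 were held. The median log2 fold change was 0.24 and 20 of the 24 estimates were above 0, against a median of -0.00014 over all genes. Ncr1, which encodes the activating receptor NKp46, rose from 89.8 and 72.1 CPM to 139 and 118 CPM, with 20.5 and 13.3 CPM in +/+ (log2 fold change 0.66, SE 0.15, edgeR adjusted p = 0.0252). Its call was lost without +/N440K replicate 2 (edgeR adjusted p = 0.181) or D/N440K replicate 1 (0.452). Klrb1b, an inhibitory receptor of the NK1.1 family, had 42.4 and 33.6 against 66.8 and 53.9 CPM and did not pass (edgeR adjusted p = 0.180). Cd244a, which encodes the receptor 2B4, had 289 and 270 against 348 and 368 CPM; it was held, with an interval of 0.17 to 0.54.

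Cytotoxic granule and effector cytokine genes gave 10 held and 5 undecided of 15, with a median log2 fold change of 0.13. As in the NK receptor list, most estimates, 13 of the 15, were above 0. The median average log2 CPM of the list was 7.01, and 96.9% of all genes between 7 and 8 were held. Gzma was held at 304 and 353 against 408 and 361 CPM, with 147 and 161 CPM in +/+, and Gzmb at 248 and 243 against 253 and 280 CPM. Prf1, the gene of perforin, had 24.5 and 24.7 against 46.3 and 36.6 CPM and did not pass (edgeR adjusted p = 0.294).

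Cytokine receptors gave 12 held and 7 undecided of 19, with a median log2 fold change of -0.05. Il2rb, the receptor chain for interleukins 2 and 15 that NK cells depend on, was held at 1945 and 2118 against 2003 and 2139 CPM. Of 20 tested trafficking receptors, 1 rose, 13 were held and 6 were undecided, beside 0.284% of all genes called higher and 47.8% held. The median average log2 CPM was 7.03 for the cytokine receptors and 7.57 for the trafficking receptors. Between 7 and 8, 96.9% of all genes were held. The integrin genes Itgal (log2 fold change 0.12) and Itgb7 (-0.0072) were held.

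In the Notch pathway, Dtx1 fell, 5 of 12 tested genes were held and 6 were undecided. The shares among all genes were 0.247% called lower and 47.8% held. Dtx1, a Notch target that encodes a ubiquitin ligase, fell from 210 and 227 CPM to 168 and 136 CPM, with 133 and 140 CPM in +/+ (log2 fold change -0.51, SE 0.12, edgeR adjusted p = 0.0264). The +/N440K libraries were the high ones, and the D/N440K and +/+ values overlapped. The call of Dtx1 was lost without +/N440K replicate 2 (edgeR adjusted p = 0.121) or D/N440K replicate 2 (0.464). Notch1, at 907 and 888 against 835 and 939 CPM, was held, as were Notch2 (log2 fold change 0.08) and Notch3 (0.04).

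Proliferation genes gave no call. Estimates above 0 numbered 13 of 19 for DNA replication and 16 of 20 for G2 and mitosis. The median log2 fold changes were 0.03 and 0.11, against -0.00014 over all genes. Of 19 tested DNA replication genes 16 were held and 3 undecided, and of 20 genes of G2 and mitosis 16 were held and 4 undecided, with 0 called by edgeR's quasi-likelihood test in either list. Their median average log2 CPM was 7.51 and 6.98; of all genes, 84.2% were held between 6 and 7 and 96.9% between 7 and 8, and 0.532% were called, so neither list stood above the general share. Mcm2, of the replicative helicase, was held at 391 and 450 against 451 and 409 CPM. Mki67, which encodes Ki-67, was held at 677 and 679 against 718 and 773 CPM. Cenpe, a mitotic kinesin, had 66.9 and 79.0 against 107 and 110 CPM and did not pass (log2 fold change 0.58, edgeR adjusted p = 0.0649).

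**Figure D4:**
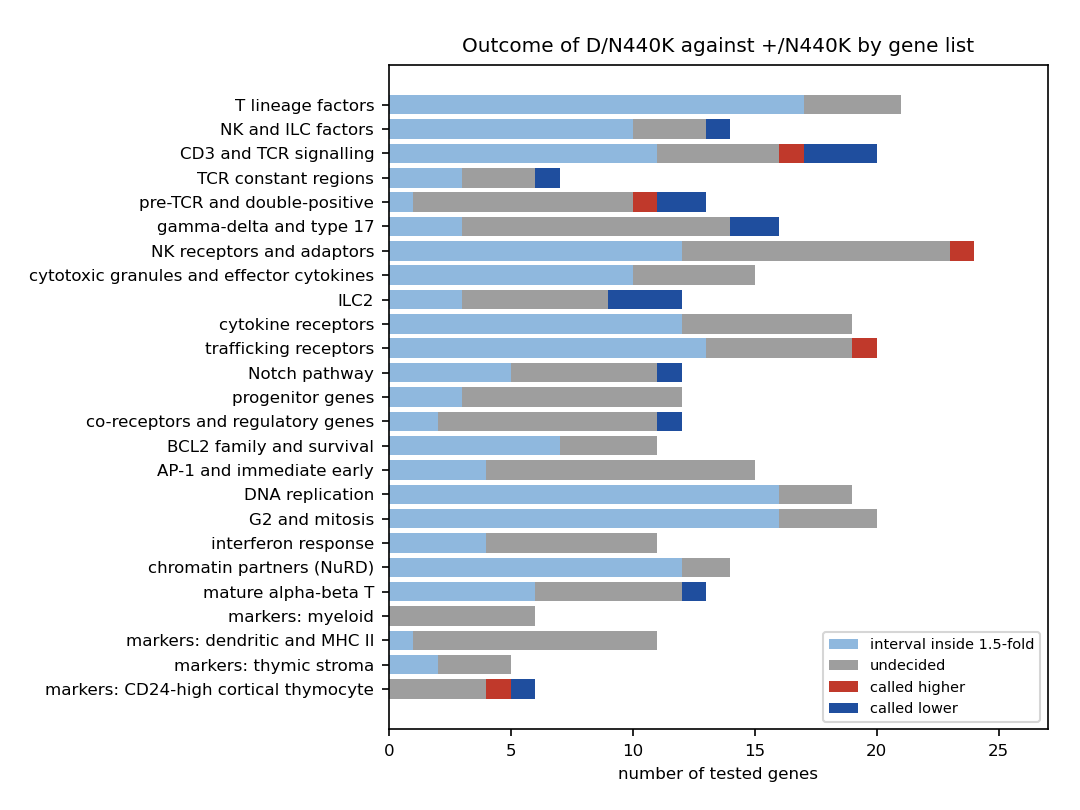
Number of tested genes (x axis) in each gene list with at least 5 tested members, other than the sex-linked genes, split into held inside 1.5-fold, undecided, called higher and called lower in D/N440K. The T lineage factors, DNA replication, G2 and mitosis and NuRD lists are mostly held, and no list shown has more than 4 called genes, the number in CD3 and T cell receptor signalling; the ILC2 list has 3 of 12 and the cortical thymocyte markers 2 of 6.

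Plxnd1 gave the smallest adjusted p of all genes. It fell from 351 and 387 CPM to 184 and 195 CPM, with 682 and 600 CPM in +/+ (log2 fold change -0.96, SE 0.10, edgeR adjusted p = 1.33e-07). The largest falls outside the lists above also included Wfikkn2, a secreted inhibitor of myostatin-like ligands, which stood at 24.5 and 12.8 against 5.14 and 2.04 CPM (log2 fold change -2.33, SE 0.51, edgeR adjusted p = 0.0146). Its call was lost without +/N440K replicate 1 (edgeR adjusted p = 0.306) or D/N440K replicate 2 (0.163), and without D/N440K replicate 1 its log2 fold change was -3.16. Apobec2, of the cytidine deaminase family, stood at 18.8 and 17.8 against 2.57 and 6.11 CPM, with 3.07 and 5.81 CPM in +/+ (log2 fold change -2.10, SE 0.50, edgeR adjusted p = 0.0303). For Apobec2 the +/N440K libraries were high and the other genotypes overlapped; the call was lost without +/N440K replicate 1 (edgeR adjusted p = 0.191) or 2 (0.112), and without D/N440K replicate 1 (0.561) or 2 (log2 fold change -2.78, edgeR adjusted p = 0.0574).

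Among the largest rises, Avil, an actin regulator of the villin family, rose from 40.8 and 42.4 CPM to 89.1 and 82.4 CPM, with 8.18 and 17.4 CPM in +/+ (log2 fold change 1.05, SE 0.19, edgeR adjusted p = 0.00307). Ube2l6, the conjugating enzyme for ISG15, rose from 6.53 and 12.8 CPM to 31.7 and 30.5 CPM (log2 fold change 1.72, SE 0.35, edgeR adjusted p = 0.0104). Nid2, a basement membrane protein, rose from 17.1 and 23.7 CPM to 44.5 and 58.0 CPM (log2 fold change 1.33, edgeR adjusted p = 0.00551). The 3 genes kept their direction without any 1 library, but Avil lost its call without D/N440K replicate 1 (edgeR adjusted p = 0.070), Ube2l6 without +/N440K replicate 1 or D/N440K replicate 1 (0.181 and 0.0879), and Nid2 without +/N440K replicate 1 or D/N440K replicate 2 (0.0682 and 0.1103).

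Complement gene C3, the protease gene Adamts14 and the olfactory receptor gene Olfr523 rose by 2.07-fold, 1.98-fold and 2.26-fold. C3 had 18.8 and 39.5 against 59.1 and 58.0 CPM (edgeR adjusted p = 0.0303), and the +/N440K libraries were far apart; without +/N440K replicate 1 its log2 fold change was 0.57 and not 1.05 (edgeR adjusted p = 0.470). Without +/N440K replicate 2 it was 1.64. C3 also lost its call without D/N440K replicate 1 (edgeR adjusted p = 0.179) or 2 (0.100). Adamts14 (edgeR adjusted p = 0.0213) lost it without +/N440K replicate 2 (0.0696) or D/N440K replicate 1 (0.199) or 2 (0.0682), and Olfr523 (edgeR adjusted p = 0.0335) without +/N440K replicate 2 (0.330) or D/N440K replicate 1 (0.196) or 2 (0.141).

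Rps3a3, annotated as a processed pseudogene of a ribosomal protein gene, had 0 reads in +/N440K and 25 in D/N440K, and stood at 7.16 and 8.30 CPM in +/+. Against a floor of 3 reads over the +/N440K group it was at least 8.68-fold higher in D/N440K (edgeR adjusted p = 0.00185). Such a gene can share reads with its parent and other copies, so its level is uncertain.

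Erythroid genes were higher in D/N440K: of 4 tested, Hbb-bs, Hba-a1 and Hba-a2 rose and Alas2 was undecided. The share called higher among all genes was 0.284%. Hbb-bs stood at 11.4 and 0.987 CPM in +/N440K, at 48.8 and 57.0 CPM in D/N440K and at 31.7 and 5.81 CPM in +/+ (log2 fold change 2.96, SE 0.44, edgeR adjusted p = 0.000137). The size for Hbb-bs rested on the +/N440K libraries, being 5.58 without replicate 1, which leaves 1 read, and 2.19 without replicate 2. Hba-a2 had 3 reads against 31, a ratio of 10.8 with an exact 95% counting interval of 3.36 to 55.0, and the 2 α-globin genes are near-identical copies. Without +/N440K replicate 1 the remaining +/N440K library had 0 reads of either, and the fitted log2 fold changes of 7.22 for Hba-a1 and 6.96 for Hba-a2, against 2.89 and 3.32 with all libraries, depend on the prior count. Their calls were lost without +/N440K replicate 2 (log2 fold changes 2.05 and 2.50), at edgeR adjusted p of 0.214 for Hba-a1 and 0.174 for Hba-a2, and without D/N440K replicate 2 (0.315 and 0.0877), and that of Hba-a2 also without D/N440K replicate 1 (0.171). Summed over 9 erythroid markers the level was 30.2 and 17.8 CPM in +/N440K, 96.8 and 129 CPM in D/N440K and 72.6 and 32.4 CPM in +/+; its part in other results was not tested.

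Markers of other cells were also summed. Myeloid markers were at 247 and 301 CPM in +/N440K and at 346 and 360 CPM in D/N440K, with 0 of 6 tested members called by edgeR's quasi-likelihood test and Elane and S100a9 at 0. Lyz2, the lysozyme of macrophages, had 153 and 148 against 212 and 206 CPM (log2 fold change 0.47, edgeR adjusted p = 0.232). It passed in the fit of only the 4 libraries compared (edgeR adjusted p = 0.0361) but not with the replicate number as a block (edgeR adjusted p = 0.387). B lineage markers were at 335 and 323 against 255 and 232 CPM, nearly all from Ighm, with Pax5, Ms4a1, Vpreb1 and Igll1 at 0. Ighm, the immunoglobulin μ constant region, fell from 318 and 295 CPM to 237 and 219 CPM (log2 fold change -0.43, SE 0.10, edgeR adjusted p = 0.0252), which did not pass without +/N440K replicate 1 (0.191), D/N440K replicate 1 (0.0945) or D/N440K replicate 2 (0.307). Thymic stroma markers overlapped between the groups (173 and 134 against 126 and 153 CPM), and so did mast and basophil markers (8.98 and 10.9 against 7.71 and 16.3 CPM). The part of these cells in the results was not tested.

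Dendritic and MHC class II markers separated the +/N440K libraries from each other rather than the groups, at 369 and 754 CPM against 624 and 668 CPM in D/N440K. Cd74, the invariant chain, had 65.3 and 220 against 154 and 214 CPM and was undecided (log2 fold change 0.41, edgeR adjusted p = 0.770). Without +/N440K replicate 2 its log2 fold change was 1.48 (edgeR adjusted p = 6.23e-08), and without +/N440K replicate 1 it was -0.27 (0.623).

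The remaining 26 called genes are named after their values were seen, since the rule for naming genes did not take them. Those that rose were Adamtsl2, Arnt2, Bsn, Cers6, Ehd3, Gdpd5, H19, H2-Q6, Ksr1, Nol4l, Pik3r6, Serpina3g, Sulf2, Syk, Tln2 and Togaram2; those that fell were 1700017B05Rik, Ablim1, Baiap3, Dlg5, Igf1r, Nav2, Nlrc5, Piezo1, Ripk3 and Tnfrsf25. Their log2 fold changes lay between 0.29 (Togaram2) and 0.92 (Adamtsl2) for the rises, and between -0.74 (Igf1r) and -0.34 (Piezo1) for the falls. All but Dlg5 and Gdpd5 lost their call without at least 1 of the 4 libraries. Such a fit leaves 1 library in a group, so a lost call alone does not show that the change rests on the omitted library. The log2 fold change of Ripk3 stayed between -0.69 and -0.62 in these fits, while that of Adamtsl2 lay between 0.64 and 1.33.

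Some of them show how the 3 genotypes stood to each other. Dlg5, a scaffold protein of cell polarity, had 246 and 246 CPM in +/N440K and 159 and 154 CPM in D/N440K, with 140 and 143 CPM in +/+ (log2 fold change -0.65, SE 0.11, edgeR adjusted p = 0.000835). The D/N440K values thus lay nearer to +/+ than the +/N440K values did. Gdpd5, a glycerophosphodiesterase, had 362 and 310 CPM in +/N440K, 473 and 521 CPM in D/N440K and 173 and 135 CPM in +/+ (log2 fold change 0.55, SE 0.09, edgeR adjusted p = 0.000835), and rose away from +/+. H19, an imprinted long noncoding RNA, had 96.3 and 119 CPM in +/N440K, 152 and 216 CPM in D/N440K and 206 and 232 CPM in +/+, and its D/N440K and +/+ values overlapped; its call was lost without D/N440K replicate 2 (log2 fold change 0.51, edgeR adjusted p = 0.283).

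Syk, the kinase related to Zap70 that NK and B cells use, rose from 164 and 145 CPM to 238 and 207 CPM, with 104 and 116 CPM in +/+ (log2 fold change 0.52, SE 0.12, edgeR adjusted p = 0.021). That call was lost without +/N440K replicate 2 (edgeR adjusted p = 0.130) or D/N440K replicate 1 (0.452). Pik3r6, a regulatory subunit of phosphoinositide 3-kinase γ, rose from 64.5 and 48.4 CPM to 86.5 and 123 CPM, with 21.5 and 27.4 CPM in +/+ (log2 fold change 0.86, edgeR adjusted p = 0.0118). The call of Pik3r6 was lost without +/N440K replicate 2 (edgeR adjusted p = 0.0909) or D/N440K replicate 2 (0.410). Tln2, a talin that links integrins to actin, rose from 362 and 359 CPM to 469 and 534 CPM, with 330 and 372 CPM in +/+ (log2 fold change 0.47, edgeR adjusted p = 0.00307); its call was lost without D/N440K replicate 2 (0.137).

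**Figure D5:**
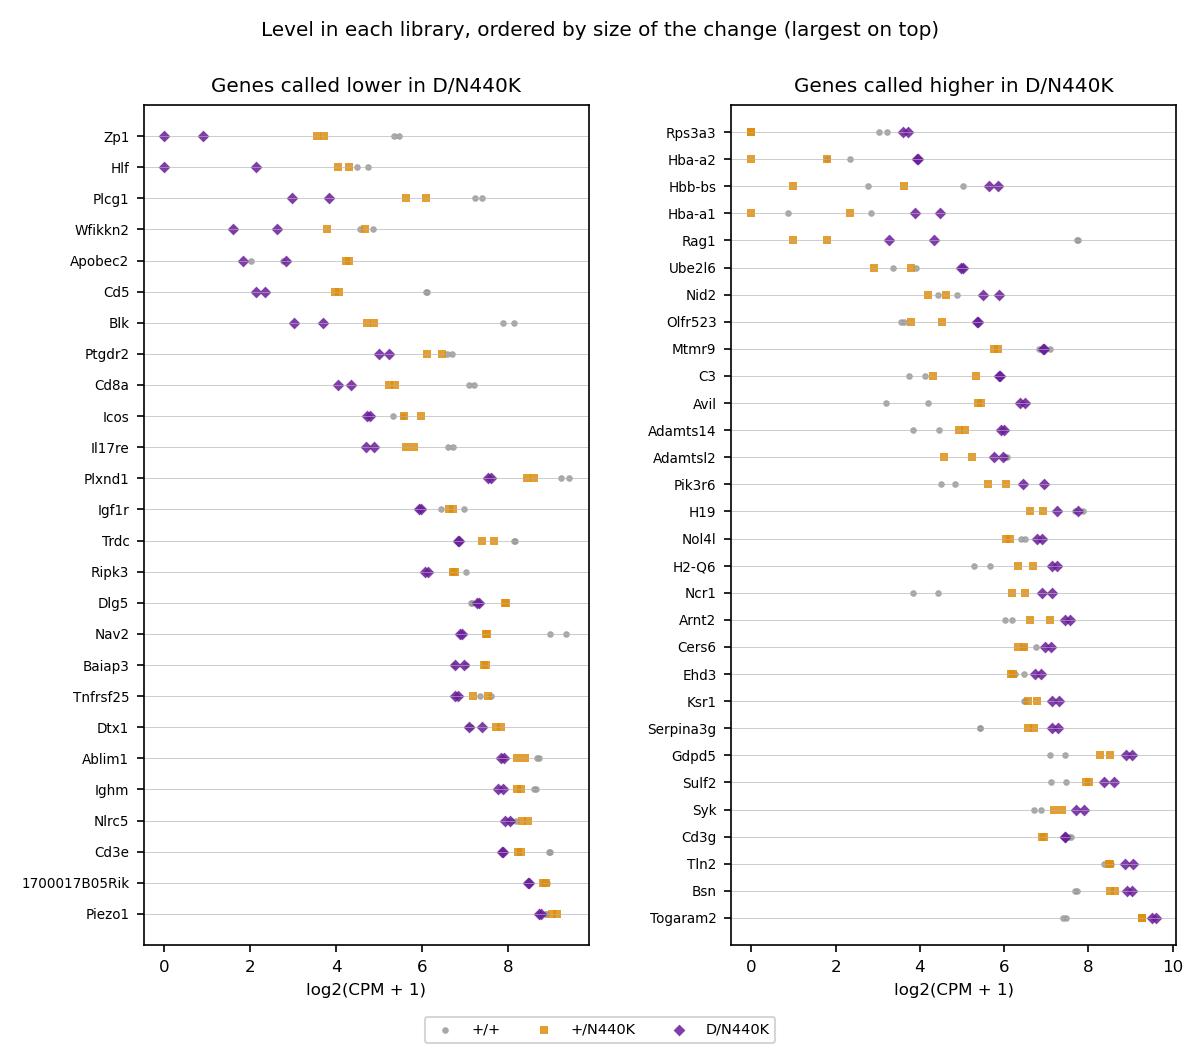
Level of called genes in the 2 libraries of each genotype, as log2(CPM + 1) on the x axis, with the largest change on top in each panel. Squares (+/N440K) and diamonds (D/N440K) do not overlap in any row, while circles (+/+) lie beyond the squares on the side away from the diamonds for Plcg1 and Trdc, beside the diamonds for Mtmr9, and far to the right for Rag1.

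The calls of this comparison stand beside larger sets against +/+ in the same fit, where 1101 genes (10.1%) differed in +/N440K and 1353 genes (12.4%) in D/N440K. These comparisons share libraries with each other and with the present one, so they are given side by side only. For Plcg1 the log2 fold changes against +/+ were -1.45 in +/N440K and -4.01 in D/N440K, and for Plxnd1 -0.80 and -1.75. Blk had -3.26 and -4.70. For Ncr1 they were 2.30 and 2.96, and for Avil 1.64 and 2.69. Mtmr9 had -1.17 in +/N440K and -0.04 in D/N440K, and Dlg5 0.79 and 0.15.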

How the data were processed

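Per the labels' protocols, total RNA of the sorted cells was turned into cDNA by an adapted RamDA-seq procedure, tagmented with Tn5 and PCR-amplified. The authors deposited whole-number counts per Ensembl gene without normalization and, in a second table, CPM of 10910 genes. The tools named were HTSeq 0.11.2, Picard 2.21.1, SAMtools 1.9, STAR 2.7.3a, edgeR (no version) and fastp 0.20.0, on mm10 (GRCm38), per the submitters' processing notes; the strand setting and annotation release are not given in the sources used here. The deposited CPM gave whole reads for 100% of values within 0.01. Those reads are the deposited counts again, so edgeR on them had to call the same 58 genes, and this is no separate check.

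Counts of the 6 Bcl11b libraries were filtered with filterByExpr (minimum count 10), scaled by TMM and fitted with edgeR's quasi-likelihood model, 1 coefficient per genotype, leaving 3 residual degrees of freedom, at a biological coefficient of variation of 0.0445. Tests were two-sided, and the Benjamini-Hochberg adjusted p had to be under 0.05 over all genes tested. Intervals used the unshrunken log2 fold change and an SE of its size over the root of F. CPM in the text are counts relative to the reads in the tested genes times the TMM factor. Count intervals are exact and, like the floor of 3 counts, cover counting error only. PCR copies are not independent molecules.

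The samples were grouped by their titles. Replicate numbers were not used to pair libraries. Replicate columns were not copies of each other (chi-square per degree of freedom 1.14 to 1.42). That value cannot tell technical from biological replicates. Annotation was GENCODE M21, which holds 53620 of the 53801 identifiers; 19 of the 58 called genes overlap another annotated gene.

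The rule for naming genes took a short fixed set of genes, the 12 called genes with the largest change in each direction with an average log2 CPM of at least 3, called members of 29 gene lists, and the best covered held members of each list; some genes the rule took are not reported here. The members and lists were chosen with earlier results of these data known. Alternatives were other scalings, filters and tools (limma-voom, DESeq2 and limma on log2(CPM + 1)), fits of 4 libraries, with a replicate block, or without each library. The fit on reads recovered from CPM was chosen after seeing the data and repeats the main fit. The script was tested on simulated data. R 4.3.3, edgeR 4.0.16, limma 3.58.1, DESeq2 1.42.0, Python 3.11.15, numpy 2.4.6 and matplotlib 3.10.9 were used.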

Additional observations from a re-analysis of the deposited data

How the results depend on the processing

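Of the 58 genes called (31 higher, 27 lower), with one choice changed at a time, no filter on low counts gave 91 (49 higher, 42 lower), DESeq2 gave 4 (1 higher, 3 lower), and a change of at least 2-fold left 21 (11 higher, 10 lower). With the replicate number as a block 37 genes were called (21 higher, 16 lower), all among the 58. Deviations of same-numbered +/N440K and D/N440K libraries from their group means had r = 0.0087 over 6951 genes. The values were -0.074 for +/+ and +/N440K, and -0.039 for +/+ and D/N440K. Whether same-numbered libraries share more than a number, such as a batch, was not tested. Leaving out 1 library in turn gave 25 to 91 calls (12 to 54 higher, 9 to 40 lower): 91 and 90 without +/+ replicate 1 or 2, 63 and 52 without +/N440K replicate 1 or 2, and 25 and 35 without D/N440K replicate 1 or 2. An arm left with 1 library was assumed to vary like the other groups. Fewer samples enter those fits; the cause of the other shifts was not tested. The other scalings, filter, tools and the fit of 4 libraries gave 47 to 69 calls. Of 5216 genes held within 1.5-fold, a margin of 1.25-fold kept 1560, a margin of 2-fold gave 8602, a 99% interval 3696 and a 90% interval 6057, and leaving out 1 of the 4 libraries gave 3693 to 4311. H2-Ab1 (log2 fold change -0.13, not called) was 1.55 without +/N440K replicate 2 (edgeR adjusted p = 0.0203) and -0.98 without replicate 1 (0.0287). Depth limits what can be held equal: under an average log2 CPM of 5, 1.59% of genes were.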

Other observations

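Of 11 tested interferon response genes, 4 were held, 7 undecided and 0 called by edgeR's quasi-likelihood test, with 10 estimates above 0 and a median log2 fold change of 0.16. Usp18, a protease that removes ISG15, was undecided at 27.8 and 31.6 against 42.8 and 48.9 CPM (edgeR adjusted p = 0.336). The BCL2 family and survival list had 11 tested members, of which 7 were held and 4 undecided, among them Bcl2, held at 348 and 346 against 363 and 377 CPM. Of 13 tested genes of mature αβ T cells, Cd8a fell, 6 were held and 6 undecided, with a median log2 fold change of 0.0009.

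Progenitor genes gave 3 held and 9 undecided of 12 tested, with a median log2 fold change of 0.19. Kit, the stem cell factor receptor, was held (log2 fold change -0.15). Spi1, which encodes PU.1, had 12.2 and 18.8 against 40.3 and 23.4 CPM (log2 fold change 1.09, edgeR adjusted p = 0.140). Its log2 fold change was 1.39 without D/N440K replicate 2 and 0.62 without D/N440K replicate 1. Lyl1 had 11.4 and 19.7 against 30.8 and 28.5 CPM, and Cd34 had 4.90 and 3.95 against 12.9 and 10.2 CPM; neither passed (edgeR adjusted p = 0.193 and 0.354).

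Co-receptor and regulatory genes gave Icos lower, 2 held and 9 undecided of 12, beside 0.247% of all genes called lower and 47.8% held. Pdcd1, which encodes PD-1, had 57.9 and 90.8 against 39.4 and 49.9 CPM, with 197 and 219 CPM in +/+ (log2 fold change -0.72, edgeR adjusted p = 0.0998). Its log2 fold change was -1.04 without +/N440K replicate 1 and -0.39 without +/N440K replicate 2. Izumo1r had 22 reads in +/N440K and 3 in D/N440K, a ratio of 7.04 with an exact 95% counting interval of 2.12 to 36.8. That interval covers counting error only, and edgeR did not call the gene. With the replicate number as a block it did not pass (edgeR adjusted p = 0.177), while with no filter on low counts it did (0.0257). In the fit of only the 4 libraries compared it did not pass the filter on low counts.

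Immediate early genes gave 4 held and 11 undecided of 15. For Junb and Egr1, +/N440K replicate 2 was the high library: Junb had 105 and 161 against 101 and 95.7 CPM, and Egr1 77.5 and 131 against 74.5 and 88.6 CPM. Without +/N440K replicate 1, the log2 fold changes of Junb and Egr1 were -0.70 and -0.69. Without +/N440K replicate 2 they were -0.08 and 0.06. Egr3 went the other way, with D/N440K replicate 2 the high library, at 49.8 and 61.2 against 66.0 and 124 CPM (log2 fold change 0.76, edgeR adjusted p = 0.0751). It passed when D/N440K replicate 1 was left out (log2 fold change 1.17, edgeR adjusted p = 0.000273). Leaving out +/N440K replicate 2 also gave a call (0.90, adjusted p = 0.0213), while leaving out D/N440K replicate 2 gave 0.26 (adjusted p = 0.957). Of the 5 sex-linked genes, 3 were held and 2 undecided.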
